A study of Triticum aestivum with 24 samples.

Results

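Leaf transcriptomes of 2 transgenic wheat lines grown with water were compared: 3 libraries labelled DEH2 well-watered and 3 labelled UBQ well-watered, 6 of the 24 libraries of the series, chosen by these labels. Wheat (Triticum aestivum) is a hexaploid whose subgenomes A, B and D carry most genes in similar copies. The spring line Fielder, labelled WT, was transformed with the wheat TOR gene. Per the labels, the TOR gene is driven by the DEH2 promoter in one line and by the UBQ promoter in the other, and a further line, DREM, has it behind the DREM promoter. The soil of well-watered plants held 80% of field capacity, and drought began at an age of 4 weeks and lasted 12 days; the day of sampling is not given. The labels do not say whether a line is 1 transformation event, nor whether replicates came from separate plants. P-values therefore rest on the spread of these libraries alone, and that spread may be technical. The series' design text names other genotypes and a re-watered group that the labels of the 24 libraries do not have, so these labels set the groups.

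The TOR kinase, named for its inhibitor rapamycin, is found across eukaryotes and promotes growth when nutrients and energy are at hand. In plants it raises protein synthesis and ribosome production and holds back autophagy, the recycling of cell material. A transgene's promoter sets in which tissues and under which conditions it is transcribed, so lines that carry 1 gene behind different promoters can differ in its level. If the labels hold, leaves of well-watered plants are the setting in which the lines can be compared without a drought response.

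The values are normalized counts per gene identifier, scaled between libraries by the authors. Their sum in the 6 libraries lay between 49059727 and 54437012, and the estimated depth between 40951510 and 53103292 reads. The limit that a count of 0 leaves at this depth, 3 reads, equals a value of 2.84 to 3.03 in the libraries labelled DEH2 and of 3.48 to 3.8 in those labelled UBQ, for counting error only. Of 107891 identifiers 60088 reached a value of 10 in at least 3 of the 24 libraries and were tested, and 32055 were at 0 in all 6 libraries compared here. None of the identifiers matched a named gene of the reference table, so genes are given by identifier and chromosome. The level of the TOR gene, leaf marker genes and the 13 pathway lists were not analysed here for this reason. In bulk leaf RNA fewer cells of a type and less RNA per cell cannot be told apart.

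Along the chromosomes, shifts seen in well-watered libraries did not recur in the drought libraries of the same line label. The start of chromosome 1B was nearly silent in the libraries labelled DEH2 well-watered and again in those labelled DREM drought, but not in DEH2 drought. A long part of chromosome 2A was lower in the libraries labelled UBQ well-watered and again in WT drought, but not in UBQ drought. Both segments are therefore reported apart from the other genes, and each group below is named as its libraries are labelled. Whether the labels of these libraries name the plants they came from was not tested. Among the 6 libraries, replicate 1 of DEH2 stood apart in 29 genes that were at least 4-fold above both of the other DEH2 libraries. These genes made up 2.18% of its values (Wilson 95% interval 2.1756 to 2.1835%, for counting error only), against 0.546% and 0.353% in the other DEH2 libraries, and 25 of them stood out likewise in replicate 1 of WT drought. The genes were chosen for this difference, so the shares describe the library and test nothing. Only 1 of the 29 was called in the comparison. Replicate 3 of UBQ stood apart in 20 genes in the same sense, of which 17 were called, and they made up 0.0199% of its values (Wilson 95% interval 0.0195 to 0.0203%, for counting error only). Across genes the libraries correlated at r = 0.979 to 0.984 within a group and at 0.943 to 0.952 between the groups. Replicate 3 of UBQ was nearest to the DEH2 libraries, at 0.949 to 0.952. The part of these library differences in the results was not tested beyond the counts without each library, given with the overall result.

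The first question was how far the well-watered leaves of the lines differed. A total of 17122 genes, 28.5% of those tested, differed at an adjusted p under 0.05 (limma with Benjamini-Hochberg adjustment over all tested genes). Of all tested genes 14.0% were called higher in DEH2 and 14.5% lower, and 8.27% were called with a difference of at least 2-fold. Outside the 1B and 2A segments 15511 of 57820 genes were called, which is 26.8%. There 7113 genes (12.3%) were higher in DEH2 and 8398 (14.5%) were lower. Called differences of at least 2-fold outside the segments numbered 4050 (7.00%), with 1850 higher (3.20%) and 2200 lower (3.80%). Most called differences were thus smaller than 2-fold, and the median over all genes outside the segments was -0.02 on the log2 scale. The split between higher and lower depends on the scaling of the libraries: 45.9% of these calls were higher in DEH2 with the authors' scaling and 61.1% when every library was set to a common sum. Leaving out replicate 1 of DEH2 left 13119 genes called outside the segments, and leaving out replicate 3 of UBQ left 14647.

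**Figure D1:**
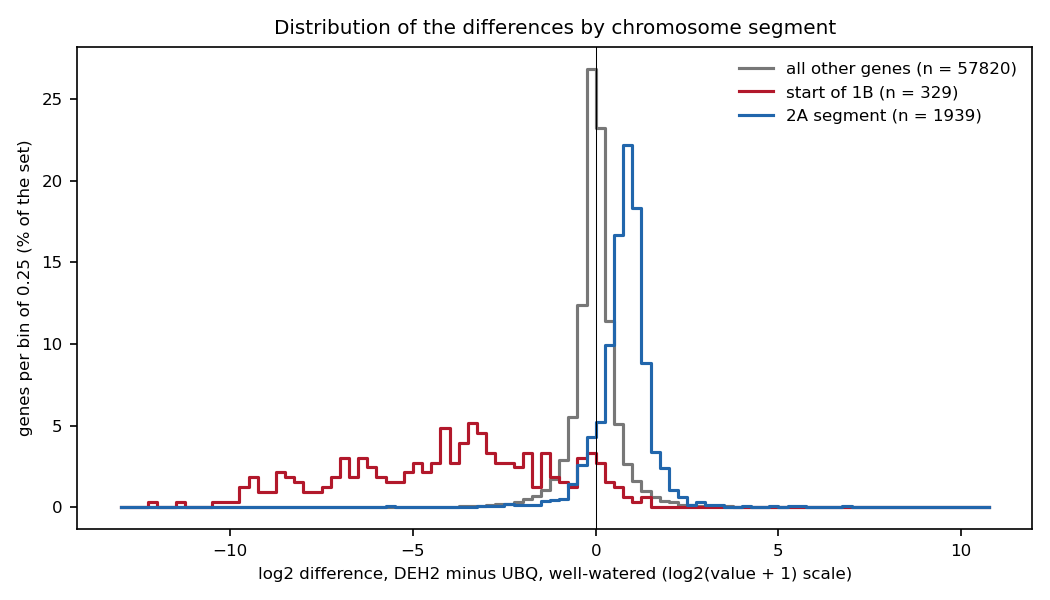
Distribution of the log2 difference, DEH2 minus UBQ in well-watered libraries, in bins of 0.25 (x axis: log2 difference; y axis: percent of the genes of each set). The 57820 genes outside the segments centre on -0.02, the 329 genes at the start of 1B spread far below 0 with a median of -3.74, and the 1939 genes of the 2A segment form a single peak with a median of 0.84.

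The largest differences outside the segments were between genes at or near 0 in one line and strongly expressed in the other. TraesCS7A02G021700, on chromosome 7A, was at 1747, 2157 and 2205 in replicates 1 to 3 of DEH2. In UBQ it was at 1.27, 1.16 and 7.53, a total of about 7.99 reads. Every DEH2 library was thus far above every UBQ library, with a ratio of means of 613 and a 95% Poisson counting interval of 311 to 1422. The log2 difference was 9.19 with a standard error of 0.92 (limma adjusted p = 2.61e-07).

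TraesCS2D02G587800, on chromosome 2D, was at 457, 434 and 499 in DEH2 and at 0 in all UBQ libraries. Set against a floor of 3 reads in each UBQ library, it was at least 126-fold higher in DEH2 (limma adjusted p = 3.85e-16). The reverse pattern was found for 2 other genes of chromosome 7A, which were at 0 in all DEH2 libraries. TraesCS7A02G054500 was at 2300, 2397 and 1911 in UBQ, at least 754-fold above the floor of 3 reads in each DEH2 library (limma adjusted p = 8.45e-15). TraesCS7A02G005200 was at 1462, 1396 and 1354 in UBQ, at least 481-fold above that floor (limma adjusted p = 1.29e-24). The 4 genes were chosen among genes whose groups do not overlap.

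**Figure D2:**
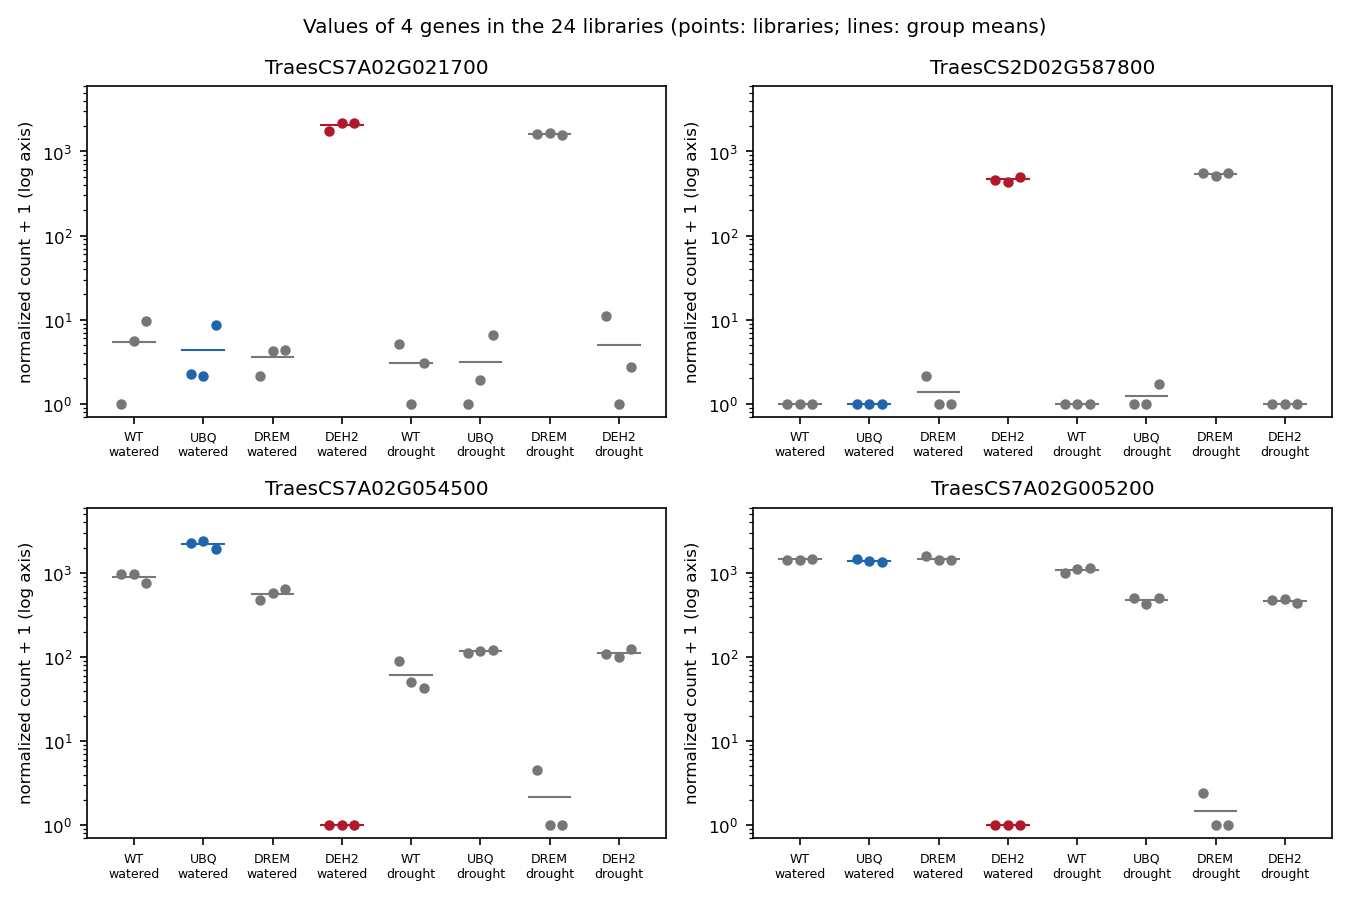
Normalized counts plus 1 (log axis) of the 4 named genes in all 24 libraries, by group (points: libraries, lines: group means; red: DEH2 well-watered, blue: UBQ well-watered). DEH2 well-watered and DREM drought stand together against the other 6 groups for each gene.

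Libraries that did not enter this comparison showed where these patterns recur. TraesCS7A02G021700 lay between 1577 and 1676 in the DREM drought libraries, and between 0 and 10.2 in those of DEH2 drought. TraesCS2D02G587800 lay between 507 and 554 in DREM drought and was at 0 in DEH2 drought. TraesCS7A02G005200 was at 0 to 1.39 in DREM drought and at 441 to 487 in DEH2 drought. In the drought libraries the 4 genes did not differ detectably between DEH2 and UBQ, with log2 differences of 0.43, -0.26, -0.08 and -0.02 (limma adjusted p = 0.76, 0.702, 0.899 and 0.946). Between DREM drought and WT drought they differed in the well-watered direction, by 9.34, 9.07, -5.13 and -9.66 (limma adjusted p = 4.64e-08, 1.96e-17, 3.42e-10 and 8.34e-25). In well-watered WT, TraesCS7A02G054500 was at 758 to 972, below UBQ, and TraesCS7A02G005200 at 1424 to 1475, overlapping the range of UBQ.

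Such on-off genes were then counted over all identifiers. A gene was taken as absent from a group when it was under 3 reads in each of its libraries, and as present when it was at 30 or more in each. Absent from DEH2 and present in UBQ were 135 genes, of which 93 lie in the 1B segment and none in the 2A segment. Absent from UBQ and present in DEH2 were 38 genes, with none in the 1B segment and 2 in the 2A segment. Outside the segments there remained 42 genes absent from DEH2 and 36 absent from UBQ. They were unevenly placed. Of the 42 genes, 10 lie on 7A, 9 of them among identifiers up to TraesCS7A02G060000, and 5 on 1B directly after the segment. Of the 36 genes, 11 lie on 2D, 10 of them from TraesCS2D02G574600 onwards, and 7 on 7A, 6 of them in the same first part. The first part of 7A held 265 tested genes and the last part of 2D held 79. All named genes of 7A lie in that first part, and TraesCS2D02G587800 in that last part, so they are not scattered over the genome. These ranges were drawn after the values were seen.

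The other groups were not used to choose these genes. Of the 42 genes absent from DEH2 well-watered, 35 were present in WT well-watered and 34 in DREM well-watered. In DEH2 drought 29 of the 42 were present and 3 absent, while in DREM drought 1 was present and 19 were absent. Of the 36 genes absent from UBQ well-watered, 24 were also absent from WT well-watered and 20 from DREM well-watered. In DREM drought 24 of the 36 were present, against 3 in DEH2 drought. None of the 42 genes was absent from DEH2 drought and present in UBQ drought, but 16 (38.1%) were absent from DREM drought and present in WT drought. None of the 36 was absent from UBQ drought and present in DEH2 drought, but 14 (38.9%) were absent from WT drought and present in DREM drought.

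**Figure D3:**
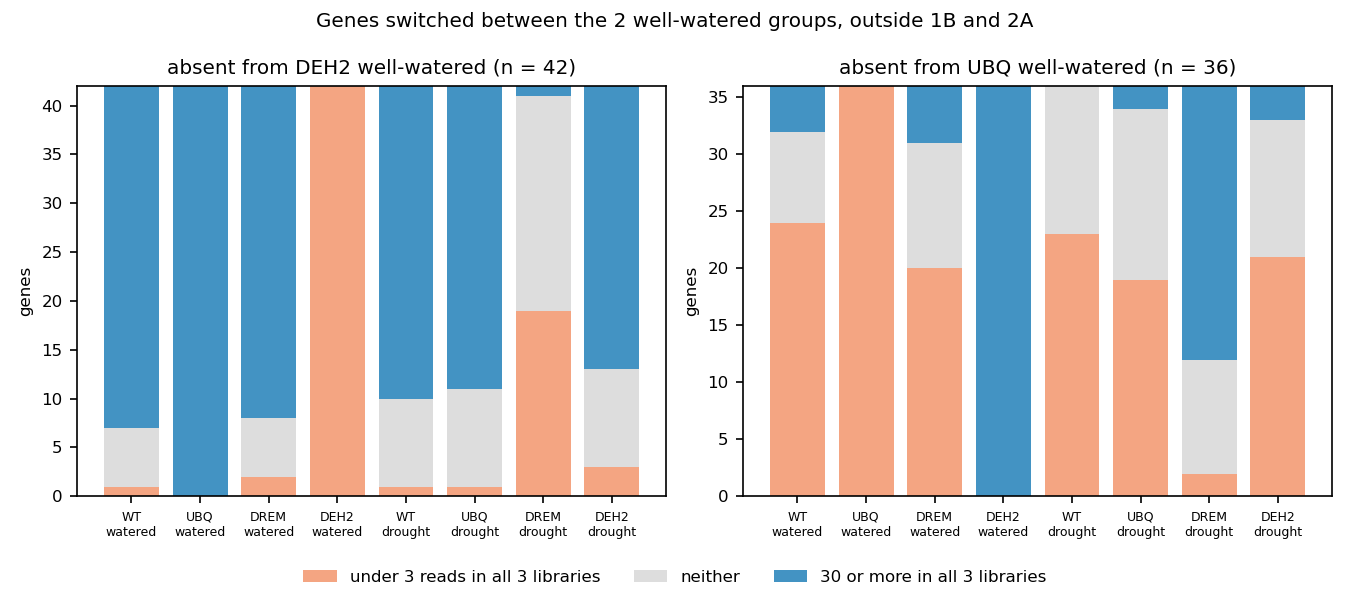
Genes outside the segments that were absent from one well-watered group and present in the other, counted in all 8 groups (y axis: genes; orange: under 3 reads in all 3 libraries, blue: 30 or more in all 3, grey: neither). In DREM drought 1 of the 42 genes in the left panel was present and 24 of the 36 in the right panel were present.

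The start of chromosome 1B, identifiers up to TraesCS1B02G084700, accounted for the strongest losses in DEH2. It holds 843 identifiers, of which 329 were tested and 402 were at 0 in all 6 libraries. These bounds were drawn from the same libraries, so the difference is a description. The median log2 level of the tested genes was 0.99, 0.96 and 0.97 in DEH2 replicates 1 to 3 and 5.98, 6.05 and 6.02 in UBQ. The groups were far apart, and replicates within each differed by less than 0.1. Of the 329 genes 268 (81.5%) were called lower in DEH2 and 4 (1.22%) higher, against 14.5% and 14.0% of all tested genes, with a median log2 difference of -3.74. The lower quartile was -6.17 and the upper quartile -1.96. Of the 197 genes present in all UBQ libraries 93 were under 3 reads in every DEH2 library. The segment held 0.0268% ± 0.000252 (SD, n = 3) of the values in DEH2 and 0.259% ± 0.00473 (SD, n = 3) in UBQ.

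Low genes of the 1B segment showed smaller differences, as the pseudocount limits what a low gene can lose. The median was -2.94 over the 152 genes with a mean under 30 in the 6 libraries, -5.86 over the 124 genes between 30 and 300 and -6.18 over the 49 genes between 300 and 3000. All 49 genes of the last class were called, 47 lower and 2 higher in DEH2, against 37.4% called in that class outside the segments. The loss did not stop at the given bound. TraesCS1B02G084700 itself was at a mean of 0.319 in DEH2 and 5558 in UBQ. TraesCS1B02G085200, beyond the bound, was at 11 in DEH2 and 5634 in UBQ. The 7 genes with a mean of at least 30 that follow the bound were all lower in DEH2 by at least 1 on the log2 scale. From TraesCS1B02G087300 on, 5 such genes in a row were not, and over the 2318 tested genes of 1B beyond the bound the median was -0.03.

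Under drought the same genes were not low in the libraries labelled DEH2. The mean of the library medians was 6.22 in DEH2 drought and 6.11 in UBQ drought, a difference of 0.10 (exact permutation test, two-sided, p = 0.1, the smallest that 3 against 3 libraries allow). The library medians were 6.18 to 6.25 in DEH2 drought and 0.74 to 1.94 in DREM drought. Against well-watered WT, the median log2 difference of these genes was -3.80 for DEH2 and -0.05 for UBQ, in comparisons that share the WT libraries.

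On chromosome 2A the difference was wide in extent and small in size. The segment from TraesCS2A02G238400 to TraesCS2A02G590600 holds 3441 identifiers, of which 1939 were tested. Its bounds too were drawn from these libraries. The median log2 level was 6.98, 7.00 and 6.97 in DEH2 and 6.22, 6.26 and 6.24 in UBQ, so that every UBQ library lay below every DEH2 library. Of the 1939 genes 1300 (67%) were called higher in DEH2 and 39 (2.01%) lower, against 14.0% and 14.5% of all tested genes, with a median log2 difference of 0.84 and quartiles of 0.49 and 1.14. Differences between 0.5 and 1.5 were found for 66% of its genes, against 10.4% of the genes outside the segments. All DEH2 libraries lay above all UBQ libraries for 1378 of the 1939 genes, against 10168 of the 57820 genes outside the segments. The segment held 3.45% ± 0.0781 (SD, n = 3) of the values in DEH2 and 1.94% ± 0.0153 (SD, n = 3) in UBQ.

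Genes of all levels took part in the 2A difference. The median log2 difference was 0.71 over 544 genes with a mean under 30, 0.88 over 846 genes between 30 and 300, 0.86 over 483 genes between 300 and 3000 and 0.74 over 66 genes above 3000. The share called rose with the level, from 30.5% in the lowest class to 93.9% in the highest. Over the 45 windows of 30 genes that lie wholly in the segment, the window medians ran from 0.44 to 1.11. The first bound showed no sharp step: TraesCS2A02G238400, TraesCS2A02G238600 and TraesCS2A02G238700 differed by 0.33, 0.28 and 0.15. Just outside it, TraesCS2A02G238000 differed by -0.62 and TraesCS2A02G237900 by 0.20. At the far bound the difference went on, at a median of 0.91 over the 13 tested genes beyond it. Of these, 9 were called higher in DEH2 and none lower, against 12.3% and 14.5% of all genes outside the segments. The 1240 tested genes before the segment had a median of 0.01.

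In contrast to 1B, the 2A segment set UBQ apart from the other well-watered groups. Against well-watered WT its median log2 difference was -0.81 for UBQ and 0.01 for DEH2, with the WT libraries shared. It held 3.46% ± 0.0115 (SD, n = 3) of the values in well-watered WT and 3.36% ± 0.0231 (SD, n = 3) in well-watered DREM. Under drought the mean library median was 6.97 in DEH2 and 7.00 in UBQ, a difference of -0.03 (exact permutation test, two-sided, p = 0.1, the smallest possible), and it lay between 6.1 and 6.12 in the WT drought libraries. The drought differences of both segments were thus far smaller than the well-watered ones and opposite in sign.

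**Figure D4:**
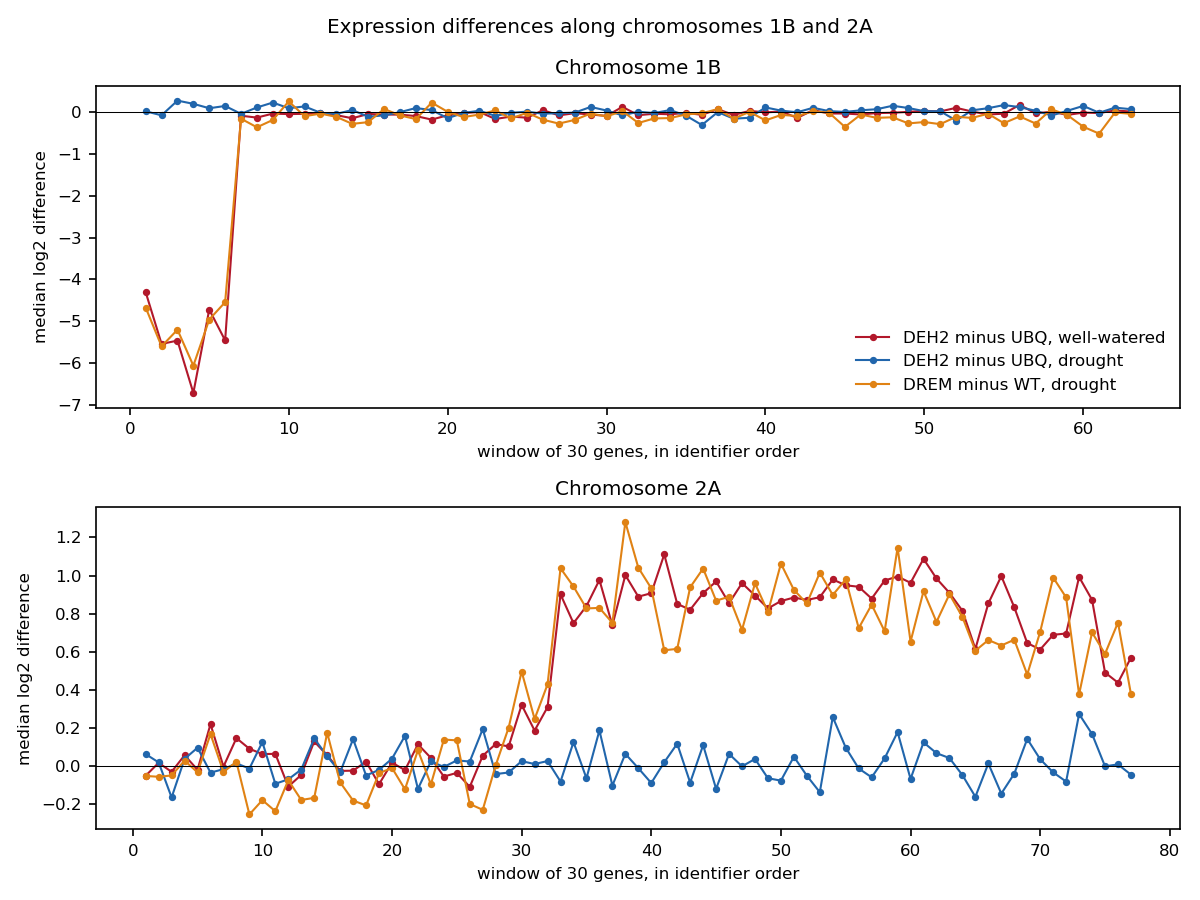
Median log2 difference over windows of 30 genes along chromosomes 1B and 2A (x axis: window in identifier order; y axis: median log2 difference) for DEH2 minus UBQ in well-watered (red) and in drought libraries (blue) and for DREM minus WT in drought libraries (orange). The red and orange lines drop at the start of 1B, to window medians of -4.30 to -6.71 in red, and rise together along 2A, while the blue line stays near 0.

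Elsewhere the windows were flat. Of the 1426 windows outside the segments 1418 had a median within 0.3 of 0, and 4 reached 0.6. These 4 formed short runs on 3 chromosomes, at the last windows of 3D and 2D and inside 3A, each higher in DEH2 and each shorter than the 3 windows asked of a segment. On 3D, from TraesCS3D02G524500 to TraesCS3D02G539000, the median over 60 genes was 0.99, in a run chosen for its difference. Of the 60 genes 47 (78.3%) were called higher in DEH2 and 1 lower, against 12.3% and 14.5% of all genes outside the segments. On 3A, from TraesCS3A02G463200 to TraesCS3A02G480200, it was 0.84 over 30 genes. On 2D, from TraesCS2D02G574600 to TraesCS2D02G594100, it was 0.72 over 30 genes, and TraesCS2D02G587800, absent from UBQ, lies among the identifiers of this run. In the drought libraries of DEH2 and UBQ the medians of the 3 runs were -0.00, 0.17 and 0.06. Between DREM drought and WT drought they were 0.66, 0.88 and 0.94. The library medians on 3D were 8.35 to 8.39 in DEH2 well-watered and 7.43 to 7.79 in the other well-watered groups.

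The remaining genes differed to a like extent on every chromosome. The share called outside the segments ran from 24.2% on 7B to 28.5% on 4A over the 21 chromosomes, around the 26.8% of all genes outside the segments. It was 26.8% in subgenome A, 26.2% in B and 27.4% in D. Among the 820 tested genes without an assigned chromosome 119 were higher and 98 lower in DEH2, with a median of 0.05. On 19 of the 21 chromosomes more genes were lower than higher in DEH2, a count that fell to 0 when the libraries were set to a common sum. The share called rose with expression: it was 14.8% of 14730 genes with a mean under 30, 23.5% of 23129 genes between 30 and 300, 37.4% of 17883 genes between 300 and 3000 and 58.4% of 2078 genes above 3000. Called differences of at least 2-fold were most frequent among low genes, at 13.3%, 6.6%, 2.72% and 3.66% of the 4 classes. In the class above 3000, 447 genes were higher and 766 lower in DEH2 with the authors' scaling, and 460 higher and 456 lower with a common sum.

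More of the 100 most abundant transcripts were called lower than higher in DEH2 with each scaling. Only with the authors' scaling were most of them called lower. Of the 100 genes with the highest mean over the 6 libraries 63 were called lower, 5 higher and 32 were not called. Of all tested genes 14.5% were called lower and 14.0% higher. Among the 2078 genes above 3000 outside the segments 58.4% were called, 766 lower and 447 higher, so a high share called is not particular to the 100. The median log2 difference of the 100 genes was -0.26, with a range from -1.48 to 1.09. Only 1 of the called differences reached 2-fold. With a common sum 49 were lower and 6 higher, and with quantile normalization 29 were lower and 10 higher. The 100 genes made up 25% ± 0.892 (SD, n = 3) of the values in DEH2 and 28.3% ± 0.857 (SD, n = 3) in UBQ.

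The second question was which of the lines differed from the other well-watered plants. For each of the 15511 genes called outside the segments, the WT mean was placed on the log2 scale between the DEH2 and UBQ means. WT lay nearer to DEH2, or beyond it, for 10052 genes (64.8%), and for 1932 genes it lay beyond UBQ. DREM lay nearer to DEH2, or beyond it, for 12107 genes (78.1%). Beyond DEH2 lay WT for 4876 genes and DREM for 7548, and DREM lay beyond UBQ for 1143. In the direction of the call, the median distance from UBQ to WT was 0.36 on the log2 scale and that from WT to DEH2 was 0.13. From UBQ to DREM it was 0.51 and from DREM to DEH2 0.01, as medians of signed distances in which opposite signs cancel. The same held for genes called with at least 2-fold, where WT was nearer to or beyond DEH2 for 2515 of 4050 (62.1%) and DREM for 2909 (71.8%). With a common sum the counts were 8229 for WT and 9975 for DREM of 12369 called genes. These counts describe positions and carry the error of the 3 libraries of each group.

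The third question was whether the difference between the lines recurred under drought, in libraries that did not enter it. The DEH2 and UBQ drought libraries differ along chromosomes of their own. From TraesCS6B02G000100 to TraesCS6B02G095900, 8 windows of 30 genes had medians of 2.27 to 6.04 in DEH2 drought minus UBQ drought. The library medians of the 362 tested genes there were 1.72 to 2.18 in UBQ drought, 5.83 to 5.93 in DEH2 drought and 6.20 to 6.33 in UBQ well-watered. At the end of 4B, 4 windows from TraesCS4B02G347200 to TraesCS4B02G397700 had medians of -1.02 to -0.42, and single windows on 4B and 5D reached 1.52 and 0.71. In well-watered leaves the 6B genes had a median difference of 0.03, and 16.6% were called, against 26.8% of all genes outside the segments. These runs hold 624 tested genes, which were kept in the counts that follow and left out where stated.

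Outside the segments 40.4% of genes were called between DEH2 drought and UBQ drought. Of the 15511 genes called in well-watered leaves 5195 (33.5%) were called there in the same direction and 3237 (20.9%) in the opposite one. Because the 1B and 2A shifts recurred in DREM drought and WT drought, the same count was made between these groups, in which 58.2% of genes were called. There 7109 genes (45.8%) were called in the same direction and 3974 (25.6%) in the opposite one. Of the genes called in either contrast, the share in the same direction was 61.6% and 64.1%. Without replicate 1 of WT drought, a library that stands apart from its group, 7036 genes were called in the same direction between DREM and WT. Without the genes of the drought runs 15394 genes were called in well-watered leaves, of which 5143 (33.4%) were called in the same direction between DEH2 and UBQ under drought and 7059 (45.9%) between DREM and WT.

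The contrasts parted for large differences. Of the 443 genes called with at least 8-fold in well-watered leaves, a class set after the values were seen, 90 (20.3%) were called in the same direction between DEH2 drought and UBQ drought and 57 (12.9%) in the opposite one. Between DREM drought and WT drought 261 (58.9%) were called in the same direction and 43 (9.71%) in the opposite one. In the direction of the well-watered difference, the median log2 difference of these genes was 0.02 in the first contrast and 2.15 in the second. Across all 57820 genes outside the segments the well-watered differences correlated at r = 0.100 with those between DEH2 and UBQ under drought and at r = 0.183 with those between DREM and WT under drought. Without the genes of the drought runs the values were 0.107 and 0.184 over 57196 genes. These are correlations across genes, which are not independent replicates, and the libraries share the authors' scaling. Whether the well-watered difference was equal under drought was tested gene by gene in the same fit, as the difference of the 2 contrasts. It differed between the libraries labelled well-watered and those labelled drought for 18715 genes outside the segments, 32.4% (limma with Benjamini-Hochberg adjustment). Of these, 435 lie in the drought runs, and 18280 genes (32%) remained without them. This test also takes in any difference between the lines in their drought response.

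**Figure D5:**
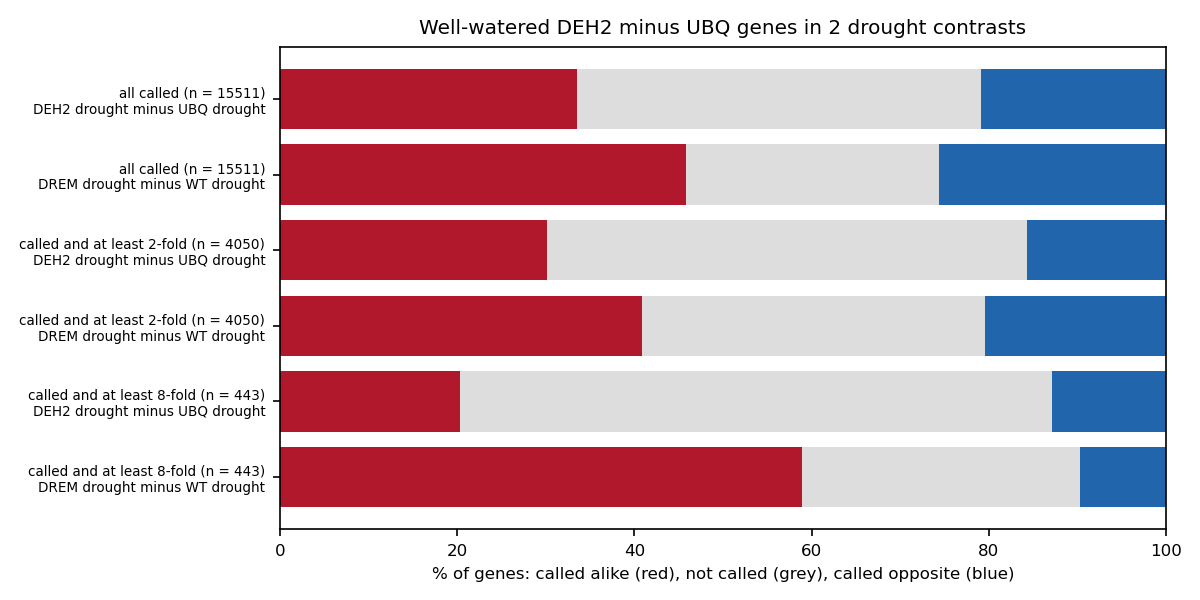
Genes called between DEH2 and UBQ in well-watered libraries, outside the segments, by their call in 2 drought contrasts that share no library with it (x axis: percent of genes; red: same direction, grey: not called, blue: opposite). Of the 443 genes called with at least 8-fold, 20.3% were called alike between DEH2 and UBQ drought and 58.9% between DREM and WT drought.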

How the data were processed

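RNA-seq values came from 1 table of normalized counts per gene, a signal scaled between libraries by the authors before they deposited it. CASAVA, Trimmomatic, STAR, Salmon and DESeq2 appear in the submitters' processing notes, without versions, and the build was not given in the sources used here. Scaling holds the median difference near 0, so a general change of transcript amount would not be seen, and reads of similar A, B and D copies may have been divided between them.

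The value of 1 read in a library was read from genes above 0 in that library alone, of which 93.0% to 99.5% were whole multiples within 0.01 of a read; dividing the sum by it gave the depth. Whole reads were not recovered for most genes, so no count model was fitted. Values were taken as log2(value + 1); folds on this scale understate low genes. Genes with 10 or more in at least 3 libraries were fitted for all 8 groups together in limma 3.58.1 (R 4.3.3, intensity trend, robust prior), with two-sided tests and Benjamini-Hochberg adjustment within each contrast over all 60088 genes. In data simulated for this comparison, 60088 genes with 200 changed, the fit recovered 65% of 2-fold and 91% of 4-fold changes. Of its calls 6.0% were false. The noise was independent between genes, and far fewer genes were changed than the 17122 called in the data. Whether these rates hold for the data was not tested.

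The segments, lists and tests were chosen with earlier results of these data known. Named genes are the 2 highest and 2 lowest differences outside the segments among called genes without overlap of the groups and with a mean of at least 50 in the higher group; genes at segment bounds are named for their place. Windows hold 30 neighbouring genes with a mean of at least 30 over the 6 libraries. Runs began where a window median reached 0.6 and lasted while it was 0.3 or more. Alternatives changed the pseudocount, filter, scaling, prior and libraries fitted.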

Additional observations from a re-analysis of the deposited data

Results flagged for a closer look

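The difference between DEH2 and UBQ was unlike in libraries labelled well-watered and drought for 18715 genes outside the 1B and 2A segments (limma, adjusted p under 0.05 for the difference of the 2 contrasts). Water regime and the plants behind each label cannot be told apart here. Of these, 435 lie in the drought runs on 4B, 5D and 6B. The 4 named genes are among the 18715. On the log2 scale, the well-watered difference minus the drought difference was 8.76 for TraesCS7A02G021700 and 9.11 for TraesCS2D02G587800 (limma adjusted p = 2.72e-05 and 5.98e-13). It was -11.02 for TraesCS7A02G054500 and -10.43 for TraesCS7A02G005200 (limma adjusted p = 1.93e-12 and 4.05e-21). These genes were chosen for their well-watered difference, which favours a large value here. For comparison, 26967 genes (46.6%) outside the segments differed between the well-watered contrast and that of DREM drought against WT drought.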

How the results depend on the processing

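Across 19 alternatives, 3 of them chosen after seeing the data, the number of genes called outside the segments stayed within 1.5 times 15511 and the 4 named genes kept their direction and call, with a largest adjusted p of 8.25e-05 (limma). With a filter of 50 in at least 3 libraries, which tests fewer genes, calls of at least 2-fold outside the segments fell from 4050 to 2676. The median of the 1B segment was -4.20 and -2.53 with pseudocounts of 0.5 and 5, -1.85 without a filter, -4.93 with the filter of 50, -3.59 with a common sum and -3.69 with quantile normalization. That of 2A was 0.77 with a pseudocount of 5, 0.68 without a filter and 0.92 with a common sum. Leaving out 1 of the 6 compared libraries at a time gave -3.81 to -3.70 for 1B and 0.833 to 0.846 for 2A. It left 12390 to 14647 genes called outside the segments, always fewer than 15511. Without replicate 1 of WT drought, which is not among the 6, 15850 were called. Extending the segments, 1B to TraesCS1B02G086800 and 2A to the end of its chromosome, left 15491 genes called outside them, and leaving out the genes of the drought runs left 15394. Same-numbered libraries of the 2 groups showed no joint deviation (r = -0.003 to 0.007), but 3 pairs cannot exclude a pairing. Over all pairs of groups r was -0.057 to 0.124 for equal numbers and -0.087 to 0.067 for different ones. With the replicate block 15391 genes were called outside the segments. Fits of 6 or 12 libraries hold no drought libraries and gave no value for results that need them. Under 3 reads a gene cannot be told from one at 0. How depth bears on the share called was not tested.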

Other observations

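The identifier ranges of the related chromosomes that match the segments by number, though not gene by gene, did not show the median shifts of the segments. On 1A and 1D, identifiers up to TraesCS1A02G084700 and TraesCS1D02G084700 had medians of -0.06 over 381 genes and -0.05 over 401 genes. Called there were 41 and 48 genes higher and 76 and 83 lower in DEH2 (30.7% and 32.7% called, against 26.8% outside the segments). Calls in these ranges thus leaned to lower in DEH2. At least 2-fold lower were 32 and 28 genes, and 16 and 15 higher, against 3.80% lower and 3.20% higher outside the segments. On 2B and 2D, identifiers from TraesCS2B02G238400 to TraesCS2B02G590600 and from TraesCS2D02G238400 to TraesCS2D02G590600 had medians of -0.02 over 1970 genes and -0.00 over 1959 genes. There 235 genes were higher and 311 lower on 2B, and 278 higher and 278 lower on 2D (27.7% and 28.4% called, near the 26.8% outside the segments).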
